A study of Mus musculus with 4 samples.

Results

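Germ cells of the testis were compared with germ cells of the ovary in mouse embryos that carried no CreERT2 transgene, by subtracting the log2 signal of the array labelled female (F) from that of the array labelled male (M) for every named autosomal gene. A gene was included if the annotation of the array named it and RefSeq placed it on an autosome, and where several transcript clusters stood for a gene, the one with the highest mean signal across the series was taken. This gave 28789 of 30734 named genes, which came from 65956 transcript clusters. The 1866 X-linked, 72 Y-linked and 7 mitochondrial or unplaced genes were left out.

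The series holds 4 DNA microarrays of primordial germ cells (PGCs), 1 for each condition, which measured total RNA of cells recovered at E12.5 with magnetic beads against SSEA-1, a carbohydrate on the surface of germ cells, from gonads that had been freed of the mesonephros. The embryos, of strain C57/BL6, were homozygous for the floxed Max allele (Max fl/fl), and the pregnant mice received tamoxifen at E8.5. The F and M embryos had no CreERT2, so no recombinase acted on the floxed Max, although the embryos were exposed to tamoxifen and are not wild type. The FC and MC embryos, female and male in turn, also carried a hemizygous Oct4dPE-CreERT2 transgene, which is expressed in germ cells and removes an exon of Max there after tamoxifen. The number of embryos behind each array is not given in the sources used here. Max itself, the gene that the floxed allele targets, differed little between the sexes, at 10.75 in F and 10.64 in M, a difference of -0.11. With 1 array per sex there is no replicate check of any M minus F value, and no p-value was computed for one. MC minus FC, the same sex contrast in the other pair of arrays, shares no array with it and is given beside it, although those cells are of another genotype.

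Mouse germ cells of both sexes reach the gonad alike and take their sex from the somatic cells around them. In the fetal ovary, retinoic acid and BMP signals bring germ cells into meiotic prophase through the transcription factor STRA8 and its partner MEIOSIN (here under its RefSeq symbol Bhmg1), whereas in the fetal testis Sertoli cells enclose the germ cells in cords, CYP26B1 breaks retinoic acid down, and the germ cells later arrest in mitosis. Around E12.5 this split has just begun, so the question that M minus F addresses is how far the RNA of both kinds of germ cell had already moved apart.

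The arrays were first checked against the sex they were labelled with. Xist, the RNA that coats the inactive X chromosome, had a signal of 7.80 in F against 4.55 in M, and of 10.81 in FC against 4.60 in MC. Of the Y-linked genes, Uba1y had 12.82 in M and 13.26 in MC, but 9.69 in F and 5.52 in FC. Eif2s3y had 7.90 in M and 8.54 in MC, with 6.60 in F and 4.78 in FC, and Uty had 6.53 in M and 6.82 in MC, with 5.62 in F and 4.65 in FC. Zfy1 and Sry, at 5.25 and 7.23 in F and 5.06 and 6.80 in M, did not separate F from M. Xist and the other Y-linked genes given here put F on the female side of M, but closer to M than FC lay to MC, and Xist in F was 3.01 below FC. Whether the sample labelled F also held male cells was not tested, so each M minus F value is a difference between the arrays with these labels. The part of this in the autosomal differences was not tested, and MC minus FC stands beside them for that reason. The 1866 X-linked genes had a median M minus F of -0.03. Of these genes, 39 were at least 2-fold lower and 8 at least 2-fold higher in M. Of the 28789 autosomal genes, 147 were lower (0.511%) and 189 were higher (0.657%) by as much.

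Upstream sequences of 3 germ cell genes are shown first, since genes of meiosis and the early oocyte were among those lowest in M relative to F. Published motifs of transcription factors were looked for upstream of such genes, and these 3 sequences were picked because they hold some. They were read from RefSeq (GRCm38.p6), end at the base before the start of the gene and run 5′ to 3′ on its strand. Capitals mark the E-box CACGTG, to which MAX dimers bind, the motif CNCCTCAG of STRA8 and MEIOSIN, the E2F motif GGCGGGAA and the nuclear receptor half-site AGGTCA, each searched on both strands. AGGTCA is also part of the longer motif CAAGGTCA of NR5A1, which was searched too.
Sycp3, chr10:88459507-88459586, plus strand: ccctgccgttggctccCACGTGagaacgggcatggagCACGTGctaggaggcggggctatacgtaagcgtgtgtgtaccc
Hormad1, chr3:95559567-95559676, plus strand: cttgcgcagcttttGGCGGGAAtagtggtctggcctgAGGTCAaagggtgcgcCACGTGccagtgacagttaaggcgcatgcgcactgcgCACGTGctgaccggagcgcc
Sohlh2, chr3:55181984-55182043, plus strand: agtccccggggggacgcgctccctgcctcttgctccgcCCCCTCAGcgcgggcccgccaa

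Sycp3 held CACGTG 64 and 43 bases before its start, Hormad1 held it 57 and 20 bases before, and Sohlh2 held CCCCTCAG 22 bases before. Bhmg1 held CACGTG at 171, GGCGGGAA at 71 and CGCCTCAG at 44 bases before the start that the table gives, and Stra8 held AGGTCA at 194 and 38 bases. Their sequences are not printed because their gene records begin farther upstream. In the 250 bases before its start Stra8 held neither CACGTG nor CNCCTCAG. None of the motifs was found in that stretch for Rec8, Dmc1, Smc1b, Meioc, Terb2 or Dazl, so the printed sequences do not stand for all genes lower in M. Over promoters from 250 bases before to 50 after a start, which 17486 of the 28789 genes had, CACGTG was present in 8.94%. It was present in 17 of 91 promoters of genes at least 2-fold lower in M (18.7%), in 7 of 61 of those at least 2-fold higher (11.5%), and in 10 of 34 on a list of meiotic genes (29.4%). CNCCTCAG was in 9.85% of all promoters, in 14.3% of those of lower genes, in 9.84% of those of higher genes and in 26.5% of those on the meiotic list. GGCGGGAA was in 3.13% of all promoters, 7.69% of lower, 6.56% of higher and 20.6% of listed meiotic genes. CAAGGTCA was in 1.57% of all promoters, in 0 of the 91 and 0 of the 61 promoters of lower and higher genes, and in 5.88% of those on the meiotic list. AGGTCA was in 16.8% of all, 12.1% of lower, 8.2% of higher and 20.6% of listed meiotic genes. These shares describe letters in a window, with no test, and they say nothing of binding.

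Most genes had nearly the same signal in both sexes. M minus F had a median of -0.01, quartiles of -0.15 and 0.13 and an SD of 0.31 over the 28789 genes, and 91.0% of them lay between -0.5 and 0.5. Across genes, which are not independent replicates, Pearson's r of M and F was 0.995. At a difference of 1 or more on the log2 scale (2-fold), 189 genes were higher in M (0.657%) and 147 were lower (0.511%), with the nearest values inside and outside the threshold at 1 and 0.99 in size. The differences reached 4-fold in 12 genes higher and 7 genes lower in M, and 8-fold in 5 and 1. The balance between the directions depended on the scaling, since 56.2% of the 2-fold genes were higher in M as deposited, 46.3% after quantile normalization, 40.1% after median centring and 68.0% after cyclic loess. It also depended on the signal, since the median of M minus F was 0.02 for genes with a mean of M and F below 4, -0.15 for those from 8 to 10 and -0.16 for those from 10 to 12.

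**Figure D1:**
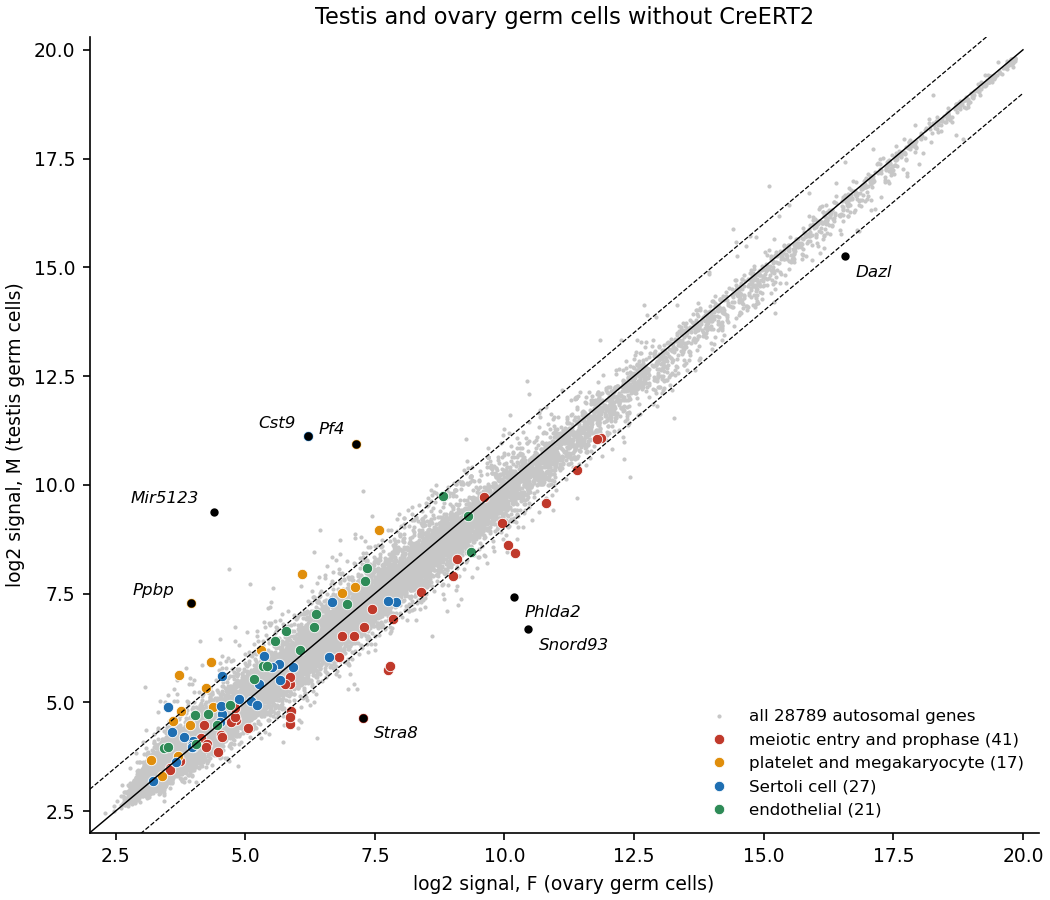
Log2 signal of each of 28789 autosomal genes in F (horizontal axis) and M (vertical axis), 1 array each. The solid line marks equal signal, the dashed lines 2-fold differences, colours 4 gene lists with the number of genes measured, and black points single named genes. Stra8 and other meiotic genes lie below the lower dashed line, and Mir5123, Cst9, Pf4 and Ppbp lie far above the upper one.

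The kind of gene differed between the directions. Of 18417 protein-coding genes, 74 were at least 2-fold higher in M (0.402%) and 114 were lower (0.619%). Of 843 microRNA genes 37 were higher and 5 lower, of 846 small nuclear RNA genes 34 were higher and 2 lower, and of 916 small nucleolar RNA genes 21 were higher and 9 lower. These 3 kinds thus made up 92 of the 189 genes higher in M. Among genes with a mean of M and F of at least 6, the 15 with the largest difference in favour of M held Mir5123, Cst9, Pf4, Upk1a, Gm2389, Spink1, Ctla2a, Krt19, Gm24141, Igfbp5, Tgfb3, Clec1b, Mir677, 5430431A17Rik and Gm23458. The 15 with the largest difference in favour of F held Snord93, Phlda2, H2bc1, Gm21028, Rec8, Dmc1, Gm22935, Pdk4, Pnldc1, Tex19.1, Smc1b, Hbb-bh0, Mael, Sohlh2 and Cyp11b1.

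Several of these stood outside the groups of genes described later. H2bc1, a histone H2B gene of germ cells, had 12.42 in F and 10.17 in M, with 14.85 in FC and 12.03 in MC. Tex19.1, which protects germ cells from transposons, had 9.17 and 7.38, with 9.58 and 8.53, and Pdk4, a kinase that inhibits pyruvate dehydrogenase, had 7.15 and 5.31, with 6.80 and 5.64. These 3 were thus higher in the female array of each pair. In favour of M, Tgfb3, a ligand of the TGF-beta family, had 6.82 in F and 8.74 in M, with 6.70 and 9.27 in FC and MC. Igfbp5, which binds insulin-like growth factors, had 10.44 and 12.39, with 10.87 and 11.84. Spink1, a trypsin inhibitor, had 7.28 and 9.86, with 8.71 and 9.04, and Ctla2a, an inhibitor of cysteine proteases, had 6.44 and 8.96, with 5.86 and 6.62. Both male arrays lay above the female array of their pair for these 4 genes, by less with CreERT2 for all but Tgfb3.

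Genes of meiotic entry and prophase were lower in M. Of 41 measured genes on the meiotic list, 11 were at least 2-fold lower and none was higher by as much, against 0.511% of all autosomal genes lower, and 37 of the 41 lay below 0, against 50.3% of all. The median of the list was -0.58. In MC minus FC 24 of the 41 were at least 2-fold lower, all 41 lay below 0, and the median was -1.19, beside 1.21% of all genes 2-fold lower. Fewer cells that express a gene and less of its RNA per cell cannot be told apart in sorted populations of this kind, here and in every result below.

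Stra8, the retinoic acid-induced activator of meiotic genes (chr6:34920163-34939344, GRCm38.p6), had a signal of 7.28 in F and 4.65 in M, and of 10.50 in FC and 5.31 in MC. M minus F was -2.63, so F was 6.19-fold above M, and MC minus FC was -5.19. Bhmg1 had 5.88 in F, 4.80 in M, 8.90 in FC and 6.06 in MC, a difference of -1.08 without and -2.84 with CreERT2. Meioc, which keeps germ cells in meiotic prophase once they have entered it, had 5.87 in F and 4.51 in M. Its partner Ythdc2, an RNA helicase, had 7.10 and 6.52. All 4 of these genes were higher in F than M, 3 of them by at least 2-fold.

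Subunits of the meiotic cohesin complex, which holds sister chromatids together, were lower in M as well. Rec8 had 7.75 in F and 5.74 in M, with 9.50 in FC and 5.99 in MC, and Smc1b had 10.21 and 8.43, with 10.75 and 8.25. Stag3 had 11.39 and 10.35, with 12.25 and 11.25. Rad21l, another kleisin of meiotic cohesin, was at 3.54 in F and 3.50 in M, near the lower end of the scale, although it had 5.44 in FC and 3.59 in MC. The cohesin genes that were well expressed in F were thus 2-fold or more lower in M, and Rad21l showed its difference only between FC and MC.

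Genes of the chromosome axis and synaptonemal complex, the protein ladder that pairs homologous chromosomes, followed the same direction with different sizes. Hormad1, an axis protein, had 10.06 in F, 8.62 in M, 12.05 in FC and 9.93 in MC, and Sycp3, another component of the axis, had 10.81, 9.59, 14.09 and 11.06. M minus F was -1.44 for Hormad1 and -1.22 for Sycp3. Sycp1, which forms the transverse filaments, had 5.87 in F and 5.41 in M, a difference of -0.46 that was not 2-fold, and 8.31 in FC and 6.83 in MC. The central element genes Syce1, Syce2 and Tex12 had differences of -0.93, -0.79 and -0.84, and Terb2, which tethers telomeres to the nuclear envelope, had 5.87 and 4.67. Sycp3 in M lay well above the median of all clusters on that array, 4, so its RNA was measured in the testis sample too.

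Among genes of meiotic recombination, Dmc1, the strand exchange recombinase, had 7.80 in F and 5.83 in M, a difference of -1.97, and Rec114, a partner of the break-forming machinery, had 9.0 and 7.91. Spo11, which makes the breaks, was at 4.53 in F and 4.26 in M. Prdm9, which sets their positions, was at 4.26 and 4.04, and Msh4 and Msh5, which act on crossovers, were at 3.75 and 3.64 and at 4.73 and 4.55. Mnd1 and Psmc3ip, which form a complex that assists strand exchange, had higher signals, at 11.78 and 11.05 and at 6.86 and 6.52, and so had Hfm1, a helicase of crossover formation, at 7.29 and 6.73. Signals of recombination genes thus ranged widely in both sexes, although signals of different genes also depend on their probes. Dmc1 and Rec114 were the 2 recombination genes on the list that reached a 2-fold difference. Trip13, at 9.60 and 9.72, and Rnf212, at 4.20 and 4.49, were among the 4 genes above 0.

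**Figure D2:**
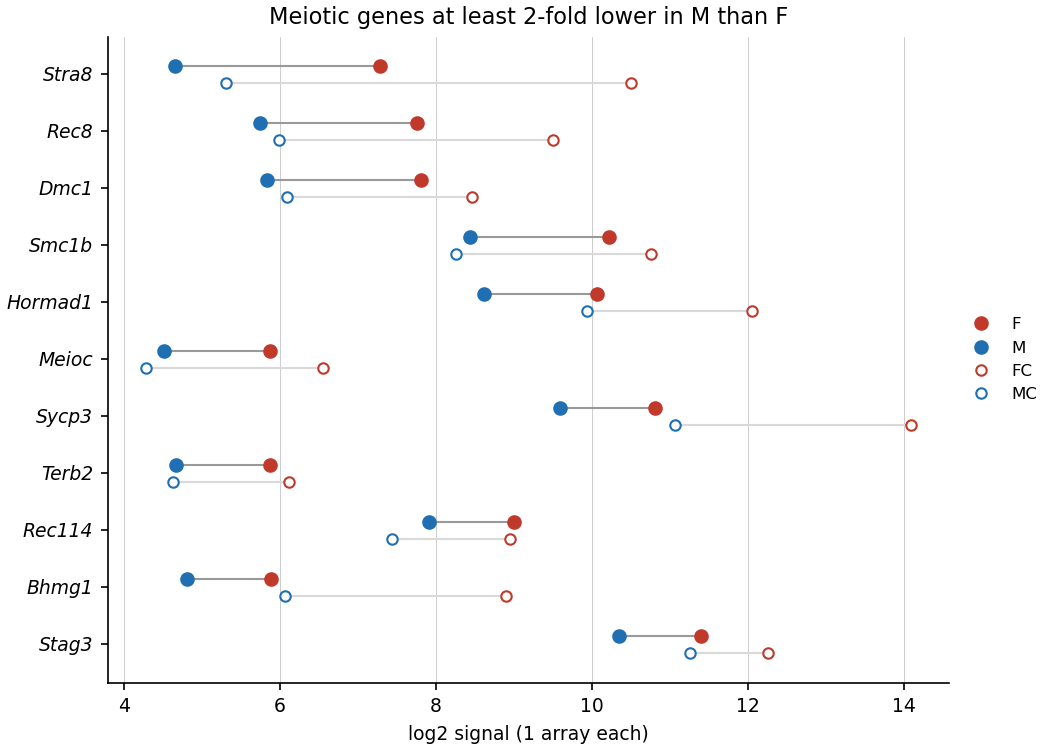
Log2 signals of the 11 meiotic genes at least 2-fold lower in M than F, in order of M minus F. Filled points are F (red) and M (blue), open points FC (red) and MC (blue), 1 array each, joined by pair. Every gene has both male points to the left of the female points of its pair, and the pair with CreERT2 lies farther apart for each gene but Stag3.

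The germ cell genes of the piRNA pathway, which silences transposons, were lower in M in much the same way. All 20 measured genes lay below 0, beside 50.3% of all genes and 64.2% of those with a mean of M and F of at least 6. Of the 20, 4 were at least 2-fold lower, beside 0.511% of all, and the median was -0.59, with -0.635 in MC minus FC. Mael had 12.31 in F and 10.60 in M, with 14.41 in FC and 12.68 in MC, so its difference of -1.71 was matched by -1.73 in the other pair. Pnldc1, which trims the ends of piRNAs, had 8.89 and 7.09, Mov10l1, a helicase that loads them, had 8.80 and 7.70, and Tdrkh had 6.99 and 5.99. Piwil1 and Piwil4, PIWI proteins used later in germ cell development, were at 4.10 and 3.97 and at 4.21 and 4.16, near the array medians in both.

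All 16 measured genes that identify primordial germ cells lay below 0, beside 50.3% of all autosomal genes. Of the 16, 13 had a mean of M and F of at least 6, and 64.2% of autosomal genes with such a mean lay below 0. At least 2-fold lower in M were 3 (Mael, Dazl and Ifitm1), beside 0.511%, and the median was -0.465, with -0.675 in MC minus FC. Mael, Ddx4 and Tdrd6 are also on the piRNA list, Pou5f1 and Sox2 on the pluripotency list, and Dnd1 and Nanos3 on that of male germ cell differentiation. Dazl, an RNA-binding protein that licenses germ cells for sexual differentiation, had 16.57 in F, 15.25 in M, 16.53 in FC and 15.56 in MC. Ddx4, the RNA helicase called VASA, had 9.95 and 9.04 in F and M, Dnd1 had 7.34 and 6.45, and Kit, the receptor of stem cell factor, had 10.92 and 10.53. Dppa3, also called STELLA, differed less, at 14.52 and 14.25. Nanos3, at 9.06 and 8.98, and Prdm1, at 6.91 and 6.84, were nearly equal. Tfap2c, at 5.41 and 5.21, and Fut4, a fucosyltransferase, at 5.47 and 4.82, had lower signals, and Tdrd6, at 3.21 and 3.16, lay below the array medians. Most of the markers thus lay well above the median of both arrays.

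Pluripotency genes that germ cells share with embryonic stem cells had a median of -0.245, with 3 of 22 at least 2-fold lower in M, beside 0.511% of all genes. Tcl1, a coactivator of the kinase AKT, had 9.67 in F and 8.21 in M, Prdm14, a repressor of somatic fate, had 7.51 and 6.21, and Dppa2 had 10.07 and 9.03. Nanog had 11.34 in F and 10.65 in M, but 11.38 in FC and 11.73 in MC, so its direction differed between the pairs. Pou5f1, which encodes OCT4, had 8.57 and 8.09, Sox2 had 9.09 and 8.73, and Utf1 had 11.55 and 11.60. None of Pou5f1, Nanog and Sox2 differed by 2-fold.

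Of 16 transcription factor and early genes of the oocyte, Sohlh2 and Stk31 were at least 2-fold lower in M, beside 0.511% of all genes, and 14 lay below 0, beside 50.3%. Sohlh2, a bHLH factor, was at 11.40 in F and 9.70 in M with 10.99 and 9.30 in FC and MC. Its partner Sohlh1 was at 4.25 and 4.03, Figla, which directs zona pellucida genes, at 4.72 and 3.96, and Nobox at 3.71 and 3.55. Stk31, a tudor domain kinase of germ cells, had 9.97 and 8.75. The zona pellucida genes Zp1, Zp2 and Zp3 lay between 3.20 and 3.57 in both arrays, at the level of the many genes with little or no signal.

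Genes of male germ cell differentiation showed no 2-fold difference in either direction in M minus F. Of 19 measured, 10 lay above 0 and 9 below, beside 47.4% and 50.3% of all genes, with a median of 0.03. Nanos2, the RNA-binding protein that fixes male fate, was at 4.05 in F and 3.77 in M, Dnmt3l at 3.18 and 3.21, and Piwil4 at 4.21 and 4.16. Nodal, which testis germ cells use in an autocrine loop, was at 4.86 and 4.76, its co-receptor Tdgf1 at 5.04 and 5.04, and its targets Lefty1 and Lefty2 at 5.49 and 5.71 and at 5.53 and 6.01. In the other pair Lefty2 had 4.18 in FC and 6.01 in MC and Tdgf1 had 4.18 and 5.48. FC was thus the lowest array for both genes. Of the receptors, Acvr1b had 6.06 and 5.73 and Acvr2b 7.54 and 7.42, while Acvr1c, at 3.45 and 3.51, lay below the array medians. Of the SMADs that carry the signal, Smad4 had 9.95 and 9.65 and Smad2 9.04 and 8.79. Of 15 Nodal pathway genes none was at least 2-fold different between M and F.

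Signals that act on the choice between the sexes were compared next. Targets of BMP signalling, which takes part in female fate, differed little, with Id1 at 9.13 in F and 8.68 in M, Id3 at 8.87 and 8.61, and Msx2 at 7.05 and 6.54. The same genes stood farther apart with CreERT2, where Id1 had 11.56 in FC and 8.72 in MC and Msx2 had 8.29 and 5.84. Of 21 BMP genes none was at least 2-fold different in M minus F. In MC minus FC 5 were at least 2-fold lower, beside 1.21% of all genes. In the retinoic acid pathway, Aldh1a2, which makes retinoic acid, had 7.57 in F and 8.62 in M, but 8.57 in FC and 8.13 in MC, and Dhrs3, which reduces retinaldehyde, had 8.59 and 9.63. Rarb, a receptor gene that retinoic acid induces, had 5.27 and 5.80, Cyp26a1 had 3.44 and 3.32, and Cyp26b1, which breaks retinoic acid down in the testis, had 4.52 and 4.55.

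Genes of DNA methylation and of Max and its partners had small differences between the sexes. None of 11 and none of 23 reached 2-fold, and the medians were 0.03 and -0.04. Tet3, a dioxygenase of methylated cytosine, had 6.40 in F and 7.32 in M, whereas Tet1 had 9.78 and 9.69 and Dnmt1, the maintenance methyltransferase, had 11.54 and 11.53. Mga, which dimerizes with MAX in the repressive complex PRC1.6, had 9.28 and 9.24, E2f6, which brings the complex to promoters, had 7.19 and 6.79, and Myc and Mycn had 7.77 and 7.99 and 5.78 and 5.71. The signals that F and M gave for the complex targeted in the FC and MC embryos therefore had M minus F values from -0.40 to 0.37.

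Cell cycle genes were slightly higher in F. Of 23 genes of G2 and mitosis 22 lay below 0, beside 50.3% of all genes, with a median of -0.39 and -0.32 in the other pair, and of 23 replication genes 20 lay below 0, with a median of -0.28. Genes of like signal lay below 0 too, since all bins from 8 to 14 had medians from -0.16 to -0.15, nearer to 0 than that of the mitotic list. Cdc20, an activator of the anaphase-promoting complex, had 12.95 in F and 11.82 in M and was the only gene of both lists at 2-fold, while Mki67 had 12.36 and 12.57. Among inhibitors, Cdkn1b, which encodes p27, had 5.51 and 5.97, Cdkn2b had 3.75 and 3.55, and the stress gene Gadd45b had 9.63 in F and 8.36 in M, with 11.32 in FC and 8.35 in MC. Of 25 nuclear genes of oxidative phosphorylation 24 lay below 0 and none above, beside 50.3% of all genes below 0. Their median was -0.27, with -0.25 in the other pair, and none was 2-fold lower. All measured genes of the mitotic, replication and oxidative phosphorylation lists had a mean of M and F of at least 6. Of autosomal genes with such a mean, 64.2% lay below 0.

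**Figure D3:**
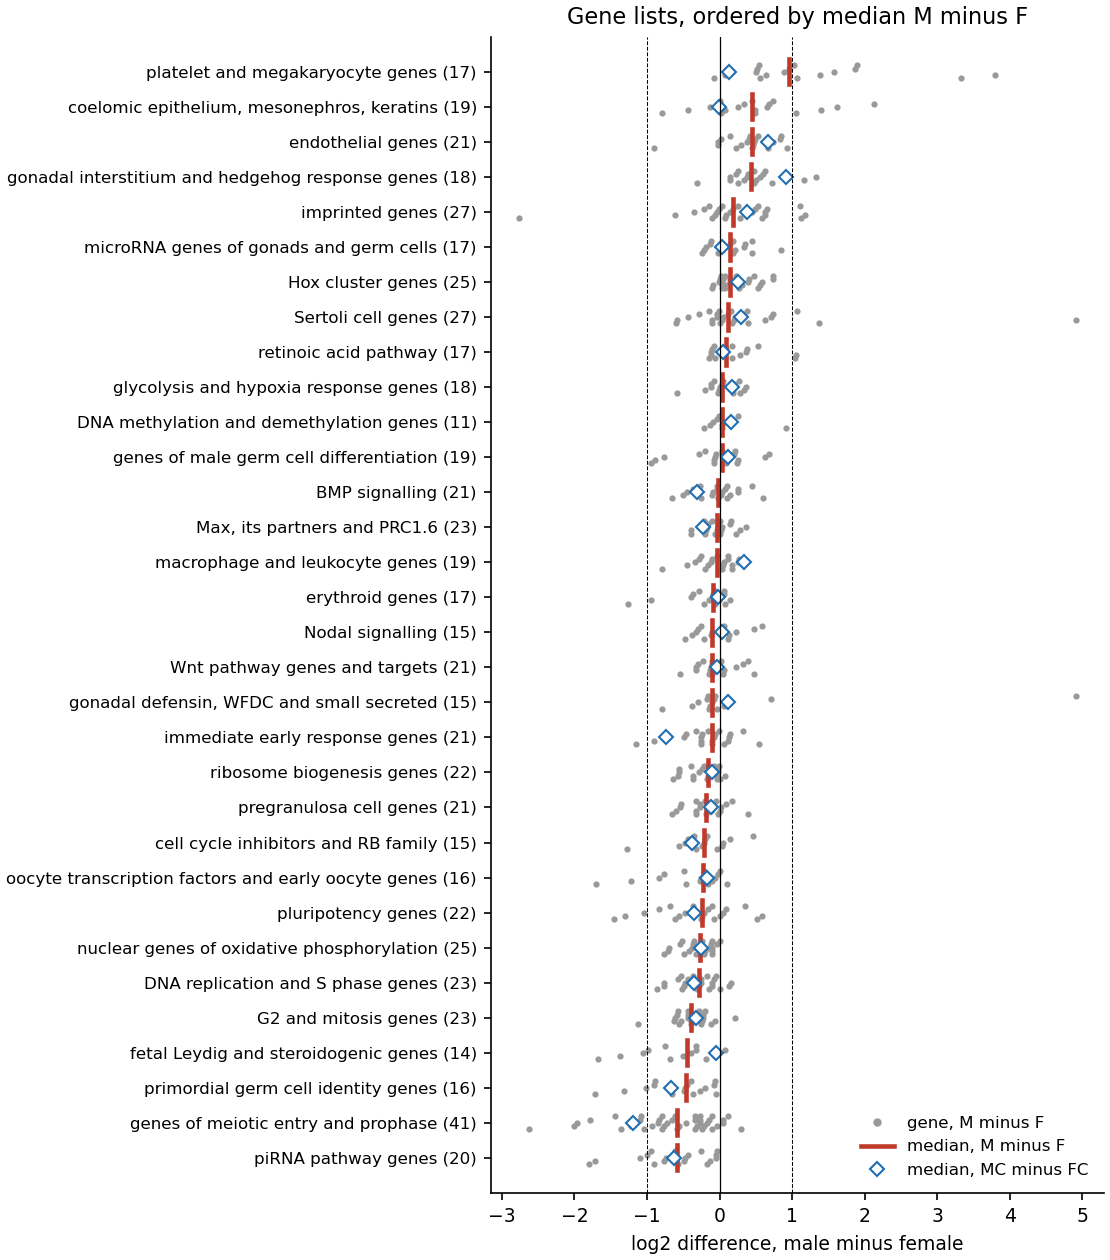
Differences on the log2 scale for 32 gene lists, with the number of measured genes in brackets. Grey points are single genes and red bars list medians of M minus F, and open diamonds are list medians of MC minus FC. The dashed lines mark 2-fold. The piRNA and meiotic lists have the lowest medians of M minus F, at -0.59 and -0.58, and the platelet list the highest, at 0.95, where the other pair had 0.13.

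Several lists of somatic and blood cells differed between M and F, and their levels were therefore looked at in all arrays. Sertoli cell genes came first. Cst9, a cystatin of the early testis, had 6.21 in F, 11.12 in M, 4.14 in FC and 12.63 in MC, a 30.1-fold difference between M and F. Amh, the hormone that removes the Mullerian ducts, had 3.52 in F and 4.89 in M, with 3.31 and 5.91 in the other pair. Hsd17b3, which makes testosterone, had 4.55 and 5.61. These 3 were the only ones of 27 measured Sertoli genes at 2-fold, beside 0.657% of all genes higher, and the median of the list was 0.11 as deposited and 0 to 0.04 under the other scalings. Sox9, which directs Sertoli cell fate, had 6.68 in F and 7.31 in M, Ptgds had 5.36 and 6.07 and Dhh had 3.59 and 4.32. Of the 4 arrays, Cst9 was lowest in FC, and F, the female array with Y-linked signals, stood between FC and the male arrays.

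Genes of pregranulosa cells, the supporting cells of the ovary, had small differences, with a median of -0.19 and none of 21 at 2-fold. Of the 21, 9 had a mean of M and F of at least 6. Foxl2 was at 2.98 in both, Wnt4 at 6.18 and 6.16, Rspo1 at 6.24 and 5.91, and Fst at 6.12 and 5.46. The medians of the list were 5.62 in F and 5.43 in M, and those of the Sertoli list were 4.88 and 5.02. Foxl2, the defining marker of female supporting cells, was thus at the level of genes without signal in both arrays. The medians of the pregranulosa list lay above those of all clusters, 3.91 in F and 4 in M.

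Steroidogenic genes were lower in the testis sample. Cyp11b1, which makes corticosterone, had 6.98 in F and 5.30 in M, Cyp11a1, which makes pregnenolone from cholesterol, had 7.03 and 5.66, and Hsd3b1 had 6.18 and 5.13. With CreERT2 these genes were near equal, at 6.25 and 6.61, 6.78 and 6.61, and 6.06 and 5.93 in FC and MC. M is therefore the array that stands below the other 3 for each. Of 14 measured genes 13 lay below 0, beside 50.3% of all genes, with a median of -0.45. In MC minus FC 7 lay above and 7 below 0, with a median of -0.045. Star and Cyp17a1 were low in both sexes, at 5.12 and 4.62 and at 4.13 and 3.81.

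Genes of interstitium and of blood vessels were higher in M. Of 18 interstitial genes 17 lay above 0, against 47.4% of all autosomal genes, with a median of 0.435, and all 18 lay above 0 in MC minus FC, with a median of 0.915. Acta2, smooth muscle actin, had 6.53 in F and 7.86 in M, and Nr2f2, a marker of interstitial progenitors, had 8.60 and 9.76. Of 21 endothelial genes 18 lay above 0, beside the same 47.4%, with a median of 0.44 and 0.67 in the other pair, none by 2-fold. Cdh5, the cadherin of endothelium, had 8.82 in F, 9.75 in M, 7.09 in FC and 9.52 in MC, and Kdr, the main receptor of VEGF, had 7.31, 7.80, 5.91 and 7.93. FC was the lowest array for both genes, and F stood between it and the male arrays. What part these cells had in the other differences was not tested.

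Platelet and megakaryocyte genes named here were higher in M than in each of the other 3 arrays. Pf4, platelet factor 4, had 10.93 in M, against 7.14 in F, 6.29 in FC and 7.49 in MC, so M was 13.8-fold above F. Ppbp, another platelet chemokine, had 7.28 in M, against 3.96, 4.50 and 4.02. Itga2b, the fibrinogen receptor subunit, had 5.92 against 4.34, 4.30 and 4.43, and Treml1 had 5.62 against 3.73, 3.59 and 3.77. Of 17 measured genes 8 were at least 2-fold higher in M, beside 0.657% of all genes. Above 0 lay 16, beside 47.4% of all genes, with a median of 0.95. In MC minus FC the count was 2, beside 0.889% of all genes, and the median was 0.13. Thbs1, thrombospondin, which other cells also express, had 7.58 in F and 8.97 in M but 8.85 in FC and 6.90 in MC. Whether these values follow sex or the single sample cannot be told apart from 1 array.

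**Figure D4:**
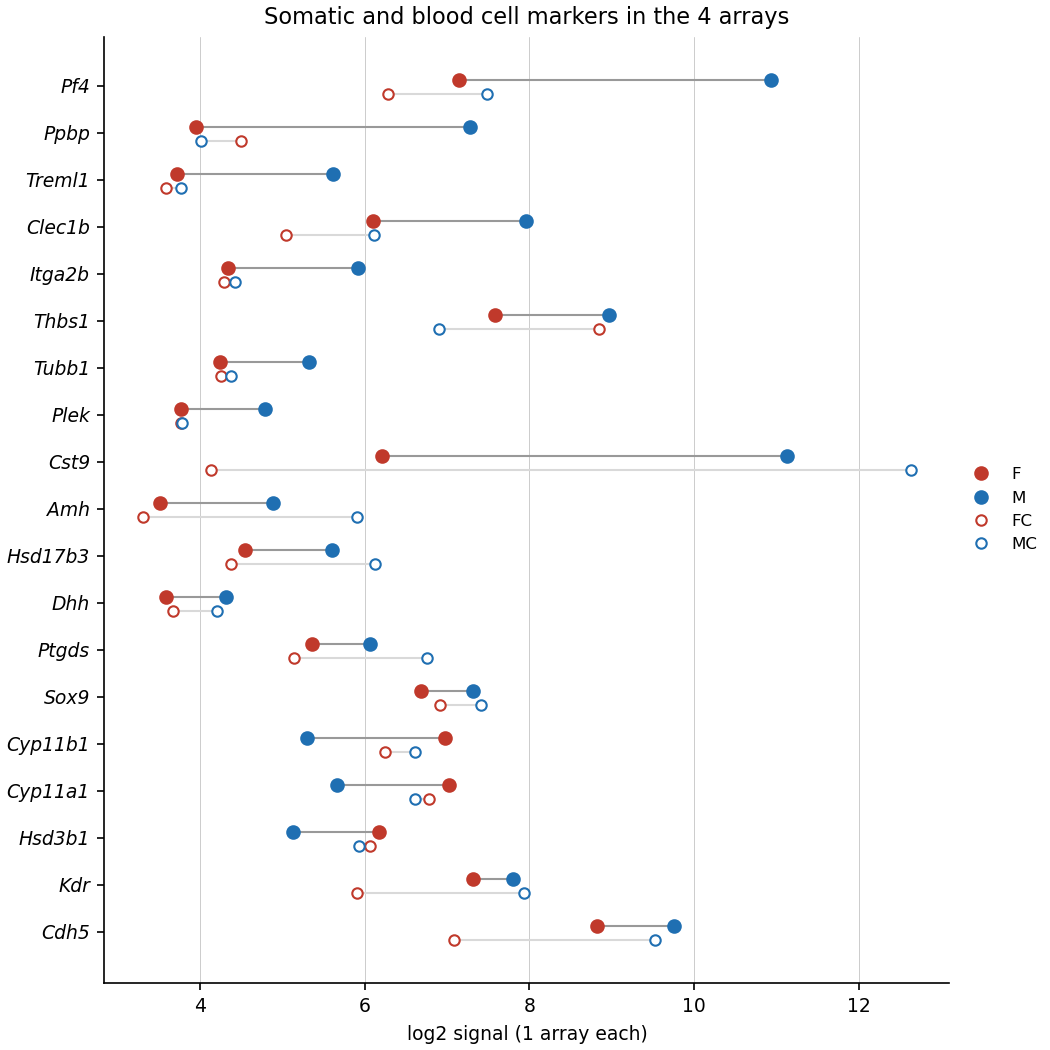
Log2 signals of somatic and blood cell markers in F and M (filled red and blue) and FC and MC (open red and blue), 1 array each. From the top are platelet genes (Pf4 to Plek), Sertoli cell genes (Cst9 to Sox9), steroidogenic genes (Cyp11b1 to Hsd3b1) and the endothelial genes Kdr and Cdh5. M stands apart to the right for most platelet genes and to the left for the steroidogenic genes, whereas Cst9 and Amh are high in M and MC.

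Genes of blood cells of other kinds did not follow the platelet genes. Of 19 macrophage and leukocyte genes none was 2-fold different, with a median of -0.04, and Ptprc, the common leukocyte antigen, was at 3.62 and 3.68. Of 17 erythroid genes 1 was at least 2-fold lower in M, beside 0.511% of all genes, and 5 lay above 0, beside 47.4%. Their median was -0.09, and Klf1, a transcription factor of red cells, was at 4.25 and 4.16. The embryonic globin Hbb-y had 15.21 in F and 13.95 in M, with 14.64 and 12.73 in FC and MC, and Hbb-bh1 had 10.16 and 9.22. Of 19 genes of coelomic epithelium, mesonephros and keratins, 4 were at least 2-fold higher in M, beside 0.657% of all genes, and 15 lay above 0, beside 47.4%, with a median of 0.45 that turned to -0.01 in MC minus FC. Krt19, a keratin of simple epithelia, had 6.33 in F and 8.46 in M, but 7.03 in FC and 6.89 in MC. Upk1a, a uroplakin of the bladder lining that was on no list, had 4.69 in F and 8.07 in M, with 5.51 and 6.27 in the other pair, so here too M held the highest value of the 4.

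Imprinted genes had larger differences at both ends. Phlda2, a brake on placental growth, had 10.19 in F and 7.43 in M, a difference of -2.76 that reached -7.99 with CreERT2, where FC had 14.65 and MC 6.66. Grb10, an adaptor that restrains insulin signalling, had 9.97 and 11.15, Kcnq1ot1, an RNA that silences its neighbours, had 4.99 and 6.11, and Zim1 had 6.46 and 7.57. Igf2 had 8.41 and 9.07 and Peg3 had 10.95 and 11.57. Of 27 measured genes 3 were at least 2-fold higher in M, beside 0.657% of all genes, 1 was lower, beside 0.511%, and 18 lay above 0, beside 47.4%. The signs of these genes were the same in both pairs for each gene named here.

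Immediate early genes, which stress and growth factors induce within minutes, differed less in M minus F than in the other pair, with medians of -0.11 and -0.74. Dusp1 had 10.92 in F and 9.77 in M and was the 1 of 21 at 2-fold, beside 0.511% of all genes lower. Fos had 6.31 and 6.20, Jun 9.85 and 9.39 and Egr1 4.62 and 4.51. The 25 measured Hox genes of the list, which leaves out Hoxb13 and Hoxd13, differed by less than 2-fold, with a median of 0.14 as deposited and -0.01 after quantile normalization. Wnt targets such as Axin2, at 6.40 and 6.08, and Lef1, at 7.90 and 7.35, had no 2-fold member among 21 either, nor had glycolysis genes among 18, with a median of 0.04, or ribosome biogenesis genes among 22.

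MicroRNA genes were more frequent by count among the genes higher in M, at 37 of 843 (4.39%), and mature sequences of 6 examples are shown. They are those of Mir5123 and Mir677, which were among the 15 largest differences in favour of M with a mean of M and F of at least 6, of a pair that shares a seed, and of 2 genes lower in M. Mir135b, at 3.07 in F and 5.36 in M, and Mir378c, at 4.13 and 6.41, had larger differences than Mir677 at a lower mean and are not shown. The sequences come from RefSeq (GRCm38.p6), which gave a mature sequence for 30 of the 42 microRNA genes at 2-fold, and capitals mark the seed, bases 2 to 8, by which a microRNA pairs with its targets. The clusters measure RNA from the gene and do not separate precursor from mature forms.
miR-5123, higher in M: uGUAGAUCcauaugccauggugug
miR-677-5p, higher in M: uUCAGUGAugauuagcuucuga
miR-496a-5p, higher in M: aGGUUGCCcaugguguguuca
miR-453, higher in M: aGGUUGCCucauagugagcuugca
let-7f-5p, lower in M: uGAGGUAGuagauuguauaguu
miR-493-3p, lower in M: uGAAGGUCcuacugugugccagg

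Mir5123 (chr4:40850056-40850138) had 4.40 in F, 9.38 in M, 7.91 in FC and 7.11 in MC, the largest difference of all autosomal genes at 4.98, while MC minus FC was -0.80. It was F that stood apart from the other 3. Mir677 had 7.45 in F and 9.28 in M but 7.60 in FC and 7.16 in MC. Mir496a and Mir453, which lie on chromosome 12 and share the seed GGUUGCC, had 3.63 and 5.03 and 5.67 and 6.89. They were the only pair of genes with a common seed among 41 seeds of 42 mature sequences. Mirlet7f-1 had 5.73 in F and 4.09 in M with 6.60 and 4.30 in the other pair, and Mir493 had 6.39 and 4.19 but 3.93 in FC and 4.96 in MC. Of the 37 genes higher in M, 13 were at least 2-fold higher in MC than FC too, 7 lay below 0 there, and 24 had a mean of M and F of at least 6. The Mir466, Mir467 and Mir669 families, which lie in an intron of Sfmbt2 on chromosome 2 and elsewhere, gave 12 of the 37. For 9 of the 37 the identifier of the cluster gave another chromosome than RefSeq gave the gene, so that more than 1 copy may be measured. All 73 measured genes of these families ranged from -0.15 to 1.78, with medians of 0.38 and 0.41 in the pairs, while Sfmbt2 itself had 6.17 in F and 5.55 in M. Related copies share sequence, so their values are not separate measurements.

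Snord93, a C/D box small nucleolar RNA gene on chromosome 5, had the largest difference of all in favour of F, at 10.46 in F and 6.69 in M with 9.01 and 7.19 in FC and MC. Nuclear and nucleolar RNA genes as a whole had medians of 0.24 and 0.11 in favour of M, with 0.08 and 0.23 in MC minus FC. The ribosomal RNA genes had one of 0.41, with 0.10 in MC minus FC. Median centring moved the median of all autosomal genes by -0.09, nearly the size of the nucleolar median in M minus F.

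Both pairs of arrays were then set side by side over all genes. Over 28789 genes, Pearson's r of M minus F and MC minus FC was 0.45 and Spearman's rho 0.37, a correlation across genes that are not independent replicates. Of the 189 genes 2-fold higher in M, 50 were 2-fold higher in MC than FC, and 147 had the same sign. The 50 were 26.5% of the first list, beside 0.889% of all autosomal genes, and 19.5% of the 256 of the second. Of the 147 genes 2-fold lower in M, 59 were 2-fold lower in MC, and 128 had the same sign. The 59 were 40.1% of the first list, beside 1.21% of all autosomal genes, and 17.0% of the 348 of the second. The share of all genes with the same sign in both pairs was not computed. The median MC minus FC was 0.41 for the former and -0.85 for the latter, so the median of the genes lower in M was farther from 0 in the pair that was not used to choose them.

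**Figure D5:**
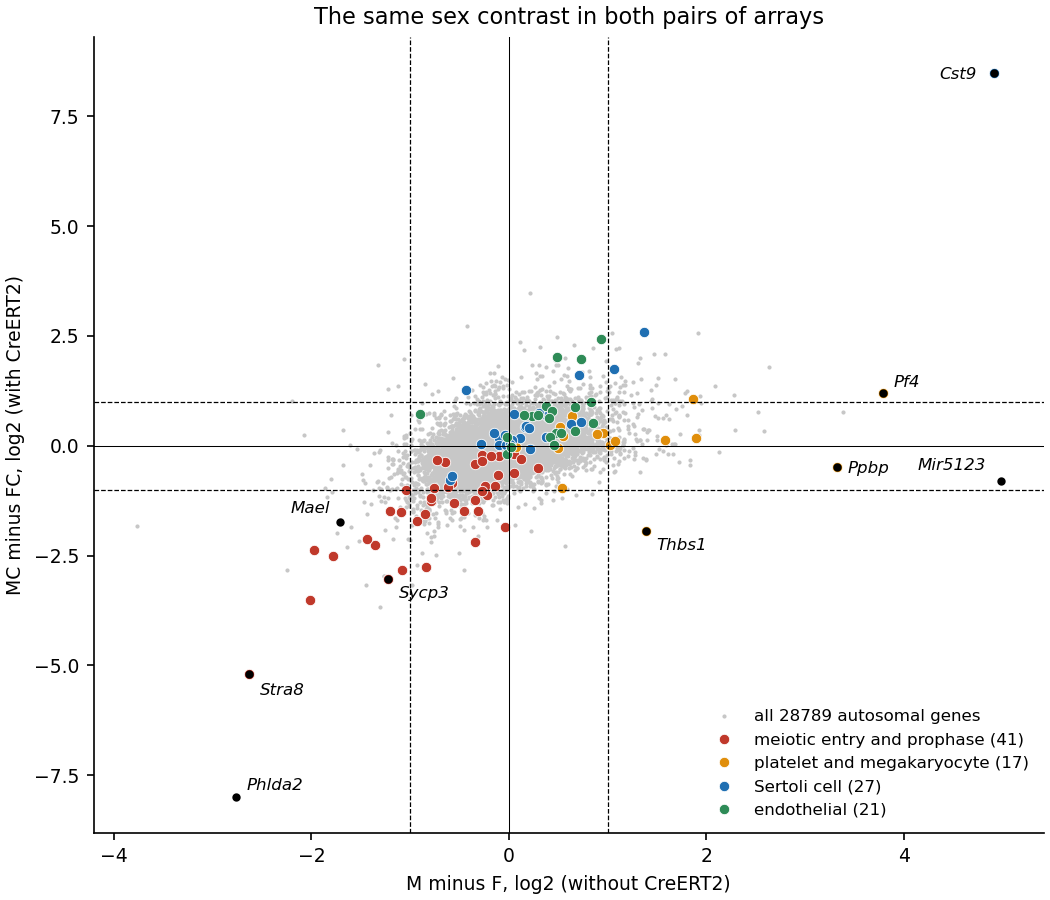
M minus F (horizontal axis) against MC minus FC (vertical axis), both on the log2 scale, for 28789 autosomal genes. Dashed lines mark 2-fold, colours the same 4 gene lists as in the plot of both arrays, and black points single named genes. Most meiotic genes lie in the lower left part, with Stra8 farthest out among them, and the imprinted gene Phlda2 lies there too. Cst9 lies alone in the upper right, and most platelet genes lie near 0 on the vertical axis.

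The sex difference common to both genotypes was fitted with limma over the 4 arrays, with CreERT2 as a blocking term, which left 1 degree of freedom for the residual spread, so that a gene whose difference depends on CreERT2 counts as spread. No autosomal gene passed an adjusted p of 0.05 (two-sided, Benjamini-Hochberg over all named genes), and 3748 (13%) had an unadjusted p under 0.05. The smallest adjusted p was 0.326, which the 10 genes of smallest p shared. Mael was first, with a sex difference of -1.72 (SE 0.0821, 2 arrays per sex, the male array lower within each pair), and Sohlh2 was second, at -1.695 (SE 0.0819). Then came Mir466f-3 at 1.525 (SE 0.0824), the globin pseudogene Hbb-bh0 at -1.865, Gm24056, Npw, Gm24095, Gm5809, Fbxo15, an F-box gene expressed in pluripotent cells, at -1.72, and Cyct, the testis form of cytochrome c, at -1.265. These genes were the ones whose difference was nearly equal in both pairs, whereas Stra8 and Phlda2, with larger but unequal differences, had larger p. Leaving out any 1 array and fitting without the block left 1 residual degree of freedom too. With so few, a lack of calls does not show that the sexes were alike.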

How the data were processed

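Total RNA of germ cells was measured on 4 arrays, 1 per group (F, M, FC and MC), and each sample was assigned to its group by its label. The deposited values are log2 signals of 65956 transcript clusters, which the authors made by robust multiarray averaging (RMA) in R, background correction included, according to the study's methods, whereas the submitters' processing notes name the Transcriptome Analysis Console. The methods name an older Mouse Genome array read out by 3' probe sets, but the transcript cluster identifiers belong to a whole-transcript array. The methods and the deposited values thus differ in array type. Where RMA was used, it shrinks differences of dim features. There is no count behind an array signal, and precision is limited by having 1 array a group.

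Clusters were named from the platform annotation, with 332 symbols updated through RefSeq (GRCm38.p6). An annotation of 1 symbol was found for 30638 clusters, 652 listed several symbols of 1 gene, and 1524 with several genes and 33142 outside the annotation were left unnamed. M minus F was the difference of the deposited log2 values, with no pseudocount or filter, counted at 2-fold. Signals of different genes depend on their probes and were not set against each other as amounts of RNA. The sex difference over the 4 arrays was fitted with limma 3.58.1 (R 4.3.3; lmFit and eBayes, CreERT2 as a block, two-sided, Benjamini-Hochberg over 30734 named genes). Other values were computed with Python 3.11.15, numpy 2.4.6, pandas 2.3.3 and matplotlib 3.10.9, and the fit was tested on simulated data.

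The genes and the 32 lists were chosen with earlier results of these data known, so a list's count is no independent evidence. Named were Max, sex-linked genes, the 15 largest differences in each direction among genes with a mean of M and F of at least 6, list members at 2-fold (at most 8 per list and direction), a fixed set of genes, and those 10 whose p in the fit was lowest. Further list members, and Upk1a and Sfmbt2 in detail, are given as examples chosen after their values were seen. Of the fixed set, Zglp1, Insl3 and Mir202 had no named cluster, and 1 gene is not reported here. Alternatives were quantile normalization, median centring, cyclic loess, other rules for genes with several clusters, a filter on dim genes, 1.5-fold and 3-fold thresholds, the pair MC and FC, and for the fit also a variance trend, no block and leaving out each array. Protein-coding genes alone were counted as an alternative added after seeing the data.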

Additional observations from a re-analysis of the deposited data

Results flagged for a closer look

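In 6 genes the sexes differed by at least 2-fold in opposite directions in the pairs of arrays without and with CreERT2. Thbs1, which encodes thrombospondin, had an M minus F of 1.39 and an MC minus FC of -1.95. The other 5 were lower in M than F and higher in MC than FC. They were Mir493 (-2.20 and 1.03), Snord73a (-1.33 and 1.84), Mir1931 (-1.06 and 1.98), Gm12238 (-1.12 and 1.36) and Gm26265 (-1.22 and 1.29). With 1 array per group, the difference between the pairs was not tested for any of them.

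Y-linked genes, which lie outside the autosomal comparison, gave more signal in F than in FC, the other female array. F was above FC by 4.17 for Uba1y, by 1.82 for Eif2s3y, by 1.46 for Zfy1, by 0.97 for Uty and by 0.92 for Kdm5d, on the log2 scale. Both arrays are labelled female, and the part of this in M minus F was not tested. No group had enough arrays to look for 1 that lay far from the rest.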

How the results depend on the processing

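The count of 189 genes higher in M became 878 at 1.5-fold, 38 at 3-fold and 74 for protein-coding genes alone, an alternative chosen after seeing the data. The count of 147 genes lower in M became 955 at 1.5-fold, 21 at 3-fold and 348 in MC minus FC. In MC minus FC the meiotic list had 24 genes at least 2-fold lower, against 11, the platelet list had 2 higher, against 8, and the median of the list of coelomic epithelium, mesonephros and keratin genes was -0.01, against 0.45. Of 74 named genes at 2-fold, 44 stayed so in the same direction there, 22 had the same sign at a smaller size, and 8 had the opposite sign, namely Aldh1a2 (-0.44), Cyp11b1 (0.36), Gm21028 (0.24), Krt19 (-0.14), Mir5123 (-0.80), Mir677 (-0.44), Ppbp (-0.48) and Thbs1 (-1.95). The cause was not tested, and that pair has another genotype. Quantile normalization, median centring and cyclic loess, which moved the median of all genes by -0.07, -0.09 and -0.03, reversed none of the 74 and took 4, 5 and 6 of them under 2-fold.

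The fit over 4 arrays gave 0 calls at an adjusted p of 0.05 in each of its 11 settings, with 2322 to 4580 genes at an unadjusted limma p under 0.05 and a smallest adjusted p of 0.172 to 0.589. Leaving out each array in turn gave 0 to 0 calls. The fit with its block paired the arrays by CreERT2 status. No other pairing was possible, because the labels give no replicate numbers. Each group has 1 array, which leaves no M minus F value without F or M. Every setting of the fit left 1 or 2 residual degrees of freedom, so its lack of calls does not show that the sexes were alike. The single arrays, the sorting of cells and the dim signals of many genes limit what these differences show.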

Other observations

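Some genes of epithelia and organs next to the gonad, which were on no list or were picked after their values were seen, were higher in M than in F with no such difference in the other pair. Shh, the hedgehog ligand, had 3.52 in F and 5.17 in M, with an MC minus FC of 0.05. The forkhead genes of endoderm Foxa1 and Foxa2 had 4.62 and 5.95 and 4.75 and 5.76, with -0.60 and 0.02 in the other pair. Hoxd13 and Hoxb13, the most posterior genes of their clusters, had 3.45 and 5.01 and 3.02 and 4.08, with -0.12 and -0.27. Isl1, a LIM homeobox gene of genital and limb mesenchyme, had 5.48 in F and 7.20 in M, with -0.37, and Afp, an albumin-like protein of yolk sac and liver, had 5.36 and 6.85, with -0.18. M exceeded F by at least 2-fold for each of these 7 genes, and none was 2-fold different between MC and FC. Upk1b, a uroplakin like Upk1a, had 7.23 in F and 8.81 in M and was higher in MC than FC as well, by 2.10. The genes were chosen for their M minus F values, so their sizes are a description of 1 array of each sex.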
